A study of Arabidopsis thaliana with 2 samples.

Results

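The 10 genes described here encode enzymes and a regulator of chlorophyll biosynthesis in Arabidopsis thaliana: HEMA1, CHLH, CHLI1, CHLD, GUN4, CRD1, PORA, PORB, PORC and CAO. They were set beside a deposited list of 8983 regions called for the clock protein PRR5 (PSEUDO-RESPONSE REGULATOR 5). The list is not a count of bound sites. Its entries run up to 100% in the authors' false discovery rate, and 5788 of them stand at 5% or below. A region was counted for a gene when its midpoint fell between the gene's ends or no more than 3 kb beyond one of them, and a gene with no such region was counted as unbound. By this rule 4 of the 8983 regions belonged to the set, 1 each at HEMA1, CHLH, CRD1 and CAO. The other 6 genes had none.

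The data are from chromatin immunoprecipitation followed by sequencing (ChIP-seq) of whole plants. All plants were prr5 mutants that carried PRR5pro:FLAG-PRR5-GFP, a doubly tagged PRR5 driven by the PRR5 promoter, and were 18 days old, kept in 12 h light and 12 h dark and harvested 10 h after the start of the light period. Their MS medium held 0.3% gellan gum plus sucrose at 2%. The 2 groups were DNA precipitated with anti-GFP (ChIP) and input DNA, with 1 library each, and the authors called regions in the ChIP relative to the input. With no replicate of either library, no test of a condition was possible, the spread between plants is unknown, and whole plants do not tell one cell type from another.

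Chlorophyll is made in the plastid by the tetrapyrrole pathway, which starts from glutamate, passes through protoporphyrin IX and there divides into a magnesium branch, which leads to chlorophyll, and an iron branch, which leads to heme and to the chromophore of phytochrome. Glutamyl-tRNA reductase and magnesium chelatase are its main points of control, and free intermediates of the magnesium branch are toxic in the light. PRR5 is a transcriptional repressor of the circadian clock that is present from midday into the evening. Transcripts of many chlorophyll genes cycle over the day.

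At the entry to the pathway, HEMA1 (AT1G58290), which encodes the main glutamyl-tRNA reductase of green tissue, had 1 region on chromosome 1 from 21626157 to 21626331 (TAIR9). It held 1002 reads, with an exact 95% Poisson interval of 941 to 1066 that covers counting error only and takes reads as independent molecules. The authors' false discovery rate (FDR), given in percent for each region of the ChIP relative to the input, was 1.69e-37. The region ranked 759 of 8983 when regions were ordered from the lowest FDR, with ties ordered by reads, and was number 1444 by reads alone. It lay inside the gene within 200 bp of one end. HO4 (AT1G58300), a heme oxygenase gene of the bilin branch, was the one other protein-coding gene within 3 kb of it. The next region of the list was 8.14 kb away, inside AT1G58320, and held 34 reads at an FDR of 24.6%.

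At magnesium chelatase, which inserts magnesium into protoporphyrin IX and is built from H, I and D subunits, the subunit genes differed in whether they had a region. CHLH (AT5G13630), the gene of the porphyrin-binding H subunit, had the region with the most reads and the lowest FDR of the set. That region, on chromosome 5 from 4392319 to 4392466, held 5183 reads (5043 to 5326) at an FDR of 1.10e-110% and ranked 152. By reads alone it was number 79 of the list, within the highest 0.879%. It was centred inside CHLH within 200 bp of an end, and PDAT (AT5G13640) lay within 1 kb. The nearest other region was 25.0 kb away, and no other lay within 20 kb.

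No region was counted for CHLI1 (AT4G18480), the gene of the main I subunit, for CHLD (AT1G08520), the gene of the D subunit, or for GUN4 (AT3G59400), whose protein binds porphyrins and stimulates the chelatase. The nearest region to CHLD lay between 3 and 5 kb away on chromosome 1 from 2693115 to 2693320. It was inside FATB (AT1G08510), a fatty acyl thioesterase gene, and held 1302 reads (1232 to 1375) at an FDR of 6.05e-11%. Of the 6 genes, CHLD was the one with a region between 3 and 5 kb away, the band next to the distance limit. At the other side of the limit no gene depended on it, since all 4 counted regions were centred inside their genes. For CHLI1 and GUN4 the nearest region was between 10 and 20 kb away, with 278 reads (246 to 313) inside AT4G18530 for CHLI1 and 97 reads (78.7 to 118) within 1 kb of AT3G59435 for GUN4.

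After the chelatase, CRD1 (AT3G56940), which encodes the catalytic subunit of the cyclase that forms the fifth ring of chlorophyll, had a region on chromosome 3 from 21078081 to 21078337. It held 1497 reads (1422 to 1575), the second highest count of the set. Its FDR of 7.39e-10% was the weakest of the 4, and it ranked 2439, against number 862 by reads. The region was centred inside CRD1 between 200 and 400 bp from an end, and SIP2;1 (AT3G56950), a gene of the aquaporin superfamily, lay within 1 kb. AT3G56930 and PIP5K4 (AT3G56960) lay between 1 and 3 kb from it, and the next region, with 664 reads, was 5.61 kb away inside PIP5K4.

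The 3 genes of light-dependent protochlorophyllide oxidoreductase, the enzyme that needs light to reduce protochlorophyllide, had no region. The nearest regions were 5 to 10 kb from each of PORA (AT5G54190), PORB (AT4G27440) and PORC (AT1G03630), and each lay inside another gene. That near PORC, on chromosome 1 from 899189 to 899379, was inside PSB27 (AT1G03600), named for a photosystem II protein, and held 2050 reads (1962 to 2141) at an FDR of 2.87e-17%. That near PORA held 919 reads (861 to 980) inside AT5G54170, and that near PORB 445 reads (405 to 488) inside CBSX5 (AT4G27460). The deposited list reaches down to regions of 17 reads and up to an FDR of 100%, and it lists none within 3 kb of the 3 POR genes. Most genes are without one, since 46.7% of all protein-coding genes had a region within 3 kb.

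CAO (AT1G44446), whose product chlorophyllide a oxygenase makes chlorophyll b, had a region just 16 bp long, at chromosome 1 from 16851137 to 16851153. Only 14 regions of the list, this one included, were 16 bp or shorter, and the median length was 150 bp. The region held 950 reads (891 to 1012) at an FDR of 3.98e-31% and ranked 942. It lay inside CAO within 200 bp of an end. AT1G44414 and AT1G44478 lay between 1 and 3 kb from it. The next region, 13.2 kb away inside ILL6 (AT1G44350), held nearly the same number of reads (951, interval 892 to 1013).

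**Figure D1:**
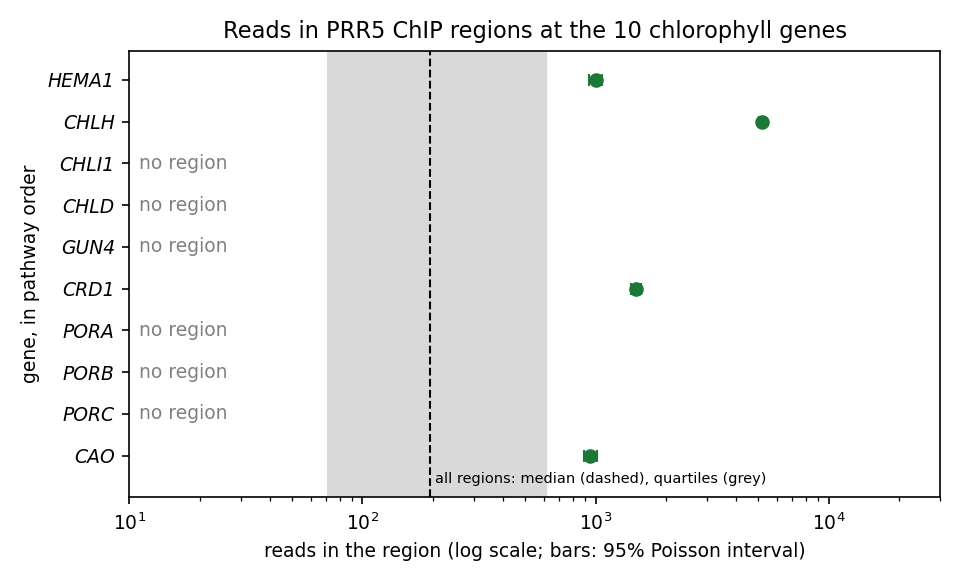
Reads in the region of each of the 10 genes, in pathway order from top to bottom, on a log axis; points are counts, bars are exact 95% Poisson intervals, the dashed line is the median of all 8983 regions (194 reads) and the grey band their quartiles (71 to 616). The 4 genes with a region, at 950 to 5183 reads, all lie right of the grey band, and 6 genes have no region.

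By reads, the 4 regions differed among themselves mainly in that CHLH stood above the rest. CHLH had 5.17 times the reads of HEMA1 (exact 95% interval of the ratio 4.83 to 5.54), 3.46 times those of CRD1 (3.27 to 3.67) and 5.46 times those of CAO (5.09 to 5.85). CRD1 had 1.49 times the reads of HEMA1 (1.38 to 1.62). HEMA1 and CAO could not be told apart by their reads (1.05 times, 0.964 to 1.15). Together the 4 regions held 8632 reads, 0.169% of the 5112270 reads in all regions. These intervals cover counting error only, and the file does not say from which library the reads were counted.

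The order by reads and the order by FDR did not match. CRD1 stood behind HEMA1 and CAO by FDR although it had more reads than either. Among the 237 regions with reads within 10% of those of CRD1, 219 (92.4%) had a lower FDR, and their median FDR was 1.11e-27%. For HEMA1 the share was 17.7% of 322 regions, for CAO 20.2% of 326 and for CHLH 36.4% of 33. The CRD1 region was also longer than the others, at 256 bp. Compared only with the 42 regions of like reads that were at least as long, 30 (71.4%) still had a lower FDR. At other tetrapyrrole genes this share varied widely, and the following were chosen after their values were seen. The region inside FC1 (AT5G26030, ferrochelatase) had 1337 reads over 224 bp at an FDR of 5.06e-09%. That inside AT1G74470, the geranylgeranyl reductase gene, had 1327 reads over 270 bp at 7.22e-08%. Of the regions with reads within 10% of theirs, 89.5% for FC1 and 93.0% for AT1G74470 had a lower FDR, and 68.6% and 71.7% of those at least as long. The share was 84.9% for the region near PCB2 (AT5G18660) and 95.1% for the weaker of those near PPOX (AT4G01690), but 14.8% for the region near HEMD (AT2G26540).

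**Figure D2:**
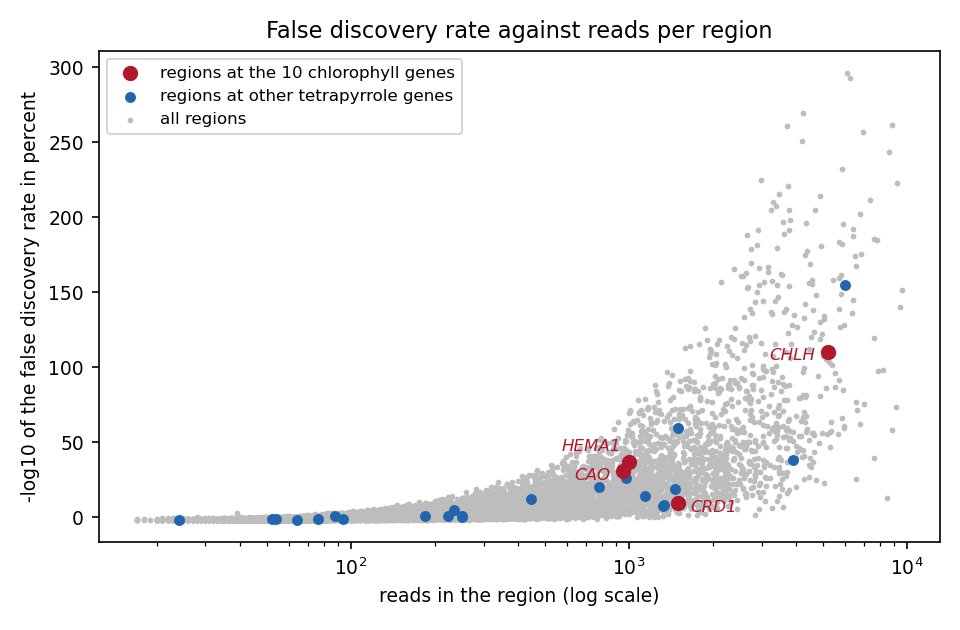
Each point is a region, with its reads on a log axis across and the negative log10 of the authors' FDR in percent upward; red points are the regions at the 10 chlorophyll genes, blue those within 3 kb of other tetrapyrrole genes and grey all others, and the 20 regions with an FDR of 0 cannot be drawn. CRD1 sits at the lower edge of the points with its number of reads, while HEMA1 and CAO, with fewer reads, sit higher.

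Per base, the regions took another order. CAO had 59.4 reads per bp and was number 38 of the list on this measure, against number 1534 by reads. CHLH had 35.3 reads per bp (number 109), CRD1 5.85 (number 1434) and HEMA1 5.76 (number 1449), against a median of 1.095 over all regions. The value of CAO follows from its 16 bp, and how the authors set the limits of so short a region is not given in the sources used here.

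**Figure D3:**
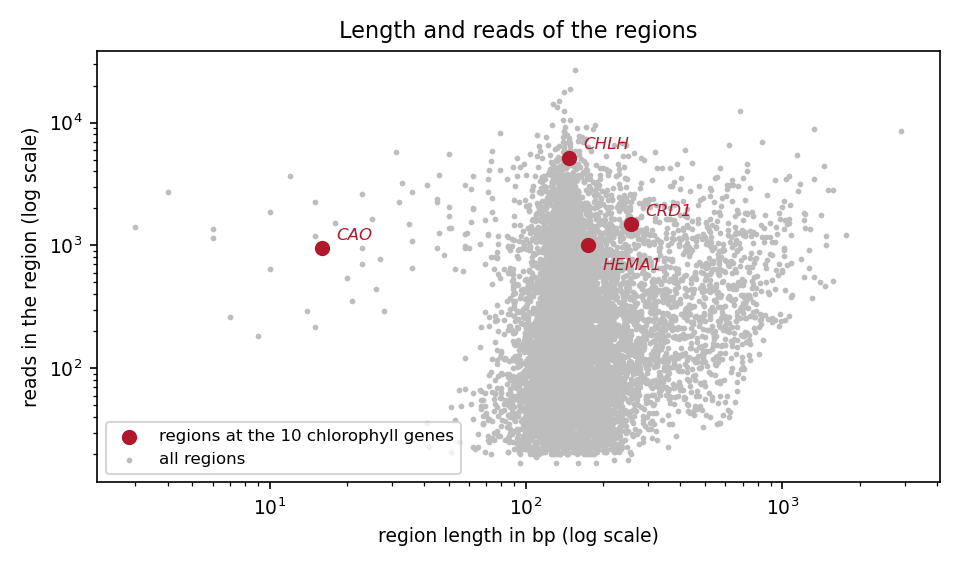
Length of each region in bp across and its reads upward, both on log axes, with the regions at the 10 chlorophyll genes in red and all regions in grey. CHLH (147 bp), HEMA1 (174 bp) and CRD1 (256 bp) lie in or beside the dense band near the median of 150 bp, and CAO (16 bp) lies among the few very short regions.

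All 4 regions were centred inside the gene and within 400 bp of an end, 3 of them within 200 bp, and in each it was the end with the higher coordinate. Of the 4636 regions of the list centred in a protein-coding gene, 48.9% lay within 400 bp of an end and 22.8% within 200 bp. Since gene strand was not used, it is not said which of these ends is the start of transcription. Each of the 4 genes had a single region within 3 kb, as did 68.8% of the 12817 protein-coding genes with any, and in each case the member was the nearest gene to its region.

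Forward and reverse reads were balanced in the 4 regions. The forward share was 50.6% at HEMA1 (507 of 1002), 48.6% at CHLH (2517 of 5183), 50.9% at CRD1 (762 of 1497) and 49.8% at CAO (473 of 950). None was unequal in an exact two-sided binomial test with Benjamini-Hochberg adjustment over all regions, where 0.935% of the list passed. The lowest was CHLH, with an unadjusted exact p = 0.0398 and an adjusted p = 0.490. The filters of the calling are not given, so regions with unequal reads may already have been left out of the list.

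By the 3 kb rule the set as a whole did not stand apart from the genome. A region was counted for 4 of the 10 genes (40%, 95% Clopper-Pearson interval 12.2 to 73.8), against 46.7% of the 27444 protein-coding genes. The count of 4 held within 1 kb, where the share of all protein-coding genes was 28%, within 500 bp (22.1%) and for regions centred inside the gene (16.3%). It was also 4 with any overlap of the region and the 3 kb window (47.6% of all genes), with overlapping regions merged (46.7%), with each region given to the nearest gene only (25.7%), at an FDR of 5% or less (34.2%) and in the 4491 regions ranked highest (28%). The limit to the inside of genes was added once the positions were known. All 4 regions were centred inside their genes, so the narrower distance limits could not lower the count. Among the 2245 regions ranked highest, the count within 3 kb was 3 of 10, without CRD1, against 15.5% of all genes. This loss rests on the order by FDR, since by reads CRD1 was number 862 of the list. The 4 regions had a median rank of 850.5, between 152 and 2439, against a median of 3575 for the best region of all 12817 genes with one. These are descriptions of a short list, and no test was made of them.

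Other genes of the tetrapyrrole pathway had regions about as often as the genome. Of 40 such genes 17 had a region within 3 kb (42.5%, 27.0 to 59.1, against 46.7%), and 8 had one within 1 kb (20%, 9.05 to 35.6, against 28%). In the synthesis of 5-aminolevulinic acid HEMA1 was alone with a region among 5 genes. Its relatives HEMA2 and HEMA3 and the glutamate semialdehyde aminomutase genes GSA1 and GSA2 had none. Of the 10 genes from there to protoporphyrin IX, 4 had a region within 3 kb but just 1 within 1 kb, HEMB2 (AT1G44318), with 54 reads at an FDR of 31.7%. The others were HEMD and HEME2, whose regions of 1505 and 1143 reads were nearer to other genes (AR781 and AT2G40480), and PPOX (AT4G01690), with 443 reads in the better of its regions.

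In the magnesium branch, CHLI2 (AT5G45930), the second gene of the I subunit, had its only region between 2 and 3 kb away, with 24 reads (15.4 to 35.7) at an FDR of 41.0%. CHLM, whose product methylates magnesium protoporphyrin IX, EMB3143 (AT5G58250) and the chlorophyll synthase gene CHLG had none. PCB2 (AT5G18660), the divinyl reductase gene, had a region of 3885 reads between 2 and 3 kb away that was nearer to another gene, with BMY3 (AT5G18670) and AT5G18661 within 3 kb. AT1G74470 was the one gene of this branch outside the set with a region within 1 kb. The regulators FLU, which restrains glutamyl-tRNA reductase in the dark, and PGR7, which binds that enzyme, had regions of 1469 and 88 reads between 1 and 2 kb away, both nearer to other genes.

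In the heme and bilin branch 2 of 7 genes (28.6%) had a region within 3 kb, against 46.7% of all protein-coding genes. FC1 had one inside the gene, while HO4 shared that of HEMA1, which lay between 1 and 2 kb from it. FC2, the ferrochelatase gene paired with FC1, had none, nor had the heme oxygenase genes HY1, HO2 and HO3 or the phytochromobilin synthase gene HY2.

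Of 11 genes of the chlorophyll cycle and of chlorophyll breakdown, 6 had a region within 3 kb (54.5%) and 5 within 1 kb (45.5%). The shares of all protein-coding genes were 46.7% and 28%, and the difference was not tested. CLH1 (AT1G19670), which encodes a chlorophyllase, an enzyme that cuts the phytol tail from chlorophyll, had more reads than any of the 10 biosynthesis genes. Its region on chromosome 1 from 6803143 to 6803284 held 5975 reads (5824 to 6128) at an FDR of 2.01e-155% and ranked 85. It lay outside the gene, within 500 bp of it and also within 1 kb of AT1G19660. NYC1 (AT4G13250), the chlorophyll b reductase gene that works against CAO in the chlorophyll cycle, had a region of 779 reads (725 to 836) inside it at 1.61e-20%. CLH2 and RCCR had regions inside the gene with 251 and 224 reads, and that inside SGR2 had 94 reads at an FDR of 23.3%. NOL, HCAR, SGR1, PAO and PPH had none, and AT1G44000 had one only between 2 and 3 kb away.

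The antenna genes, which encode the proteins that bind chlorophyll, were counted under the same limits. Within 3 kb the counts were 4 of 10 biosynthesis, 4 of 4 photosystem I antenna and 13 of 14 photosystem II antenna genes. The share of all protein-coding genes was 46.7%. Neighbouring photosystem II antenna genes shared regions under this limit, so their count is not one of separate regions. LHCB1.1, LHCB1.2 and LHCB1.3 had a region in common, as had LHCB1.4 and LHCB1.5. Within 1 kb a region was counted for 4 of the 10 biosynthesis genes, for all 4 photosystem I antenna genes and for 11 of 14 photosystem II antenna genes, against 28% of all protein-coding genes. Inside the gene, a limit added once the positions were known, it was 4 of 10 biosynthesis genes (40%), against 16.3% of all genes. It was 3 of 4 photosystem I antenna genes and 6 of 14 photosystem II antenna genes (42.9%). The median rank of the best region within 1 kb was 850.5 for the biosynthesis genes, 597.5 for photosystem I antenna genes, 769 for photosystem II antenna genes, 471 for the genes of plastid sigma factors and GLK regulators and 3608.5 for other tetrapyrrole genes, against 3795 for all protein-coding genes with one. Of the 8 genes of plastid sigma factors and the chlorophyll regulators GLK1 and GLK2, 5 had a region within 3 kb and 3 within 1 kb. None of the regions at the 10 biosynthesis genes was among those counted for the antenna, sigma factor or GLK genes. Only genes within 3 kb of the same region can share it, so this absence depends on where the genes lie and does not compare binding. The difference between these short lists was not tested.

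**Figure D4:**
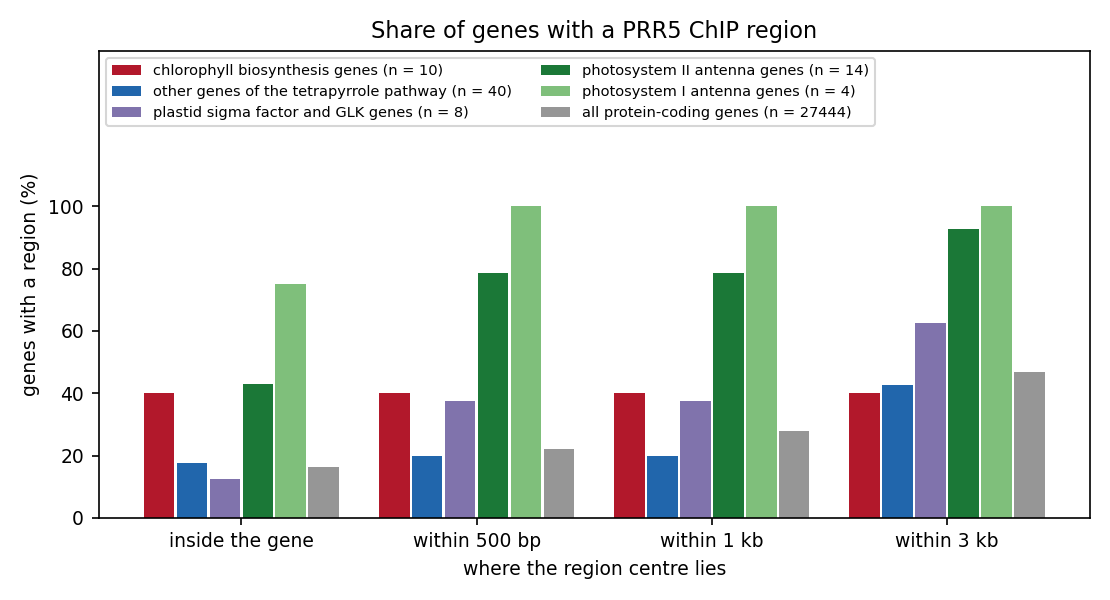
Share of genes with a region (percent, from 0) in each gene set and in all protein-coding genes, for 4 limits on where the region centre may lie. The 10 chlorophyll biosynthesis genes stay at 40% under each limit, while all protein-coding genes run from 16.3% inside the gene to 46.7% within 3 kb; inside the gene, photosystem II antenna genes (42.9%) are close to the biosynthesis genes.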

How the data were processed

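Both samples were grouped by their labels (ChIP and input, 1 library each). The reference of the mapping was TAIR9, per the file headers and the submitters' processing notes. For each region called in ChIP relative to input the deposited list gives the authors' false discovery rate in percent and read counts, in all and by strand, which are whole numbers without normalization. No source used here gives the mapper, the caller, the filters or the library depth. Genes came from the RefSeq table of TAIR10.1, another build, used for names, for which genes lie near a region and for whether a region centre falls inside a gene and in which distance band from its ends. These places therefore rest on gene positions of another build, and no gene coordinates are printed. All 76 listed loci matched, and genes among the 7 whose symbol did not are named as in the table. Intervals cover counting error only. The members and lists were chosen with earlier results of these data known. All 10 members, and every listed gene with a region, could be named by rule. Planned motif searches were not made. The placement and strand steps were tested on simulated data. Python 3.11.15, pandas 2.3.3 and SciPy 1.17.1 were used.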

Additional observations from a re-analysis of the deposited data

How the results depend on the processing

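The count of 4 of the 10 genes with a region was also 4 within 1 kb, within 500 bp, with any overlap, at an FDR of 5% or less, in the 4491 regions ranked highest, with the nearest gene only, with overlapping regions merged and, in a limit added after seeing the data, inside the gene. It was 3 in the 2245 ranked highest. The narrower distance limits could not lower the count, since all 4 regions were centred inside their genes. For the 40 other pathway genes the count was 17 within 3 kb (42.5%, against 46.7% of all protein-coding genes). It became 8 within 1 kb (20%, against 28%) and within 500 bp (20%, against 22.1%). With the 2245 and the 4491 regions ranked highest it was 9 (22.5%, against 15.5%) and 11 (27.5%, against 28%). It was 10 with the nearest gene only (25%, against 25.7%) and 14 at an FDR of 5% or less (35%, against 34.2%). Inside the gene, where fewer regions can count by construction, it was 7 (17.5%, against 16.3%). Of 8 ranks of member regions by reads or by reads per bp, 7 differed by more than 1.5 times from the rank by FDR. No paired analysis was possible because each group held 1 library, and for the same reason no library could be left out. The order of HEMA1 and CAO by reads was not resolved, since the interval of their read ratio (0.964 to 1.15) includes equal reads. That interval covers counting error only. Whether greater depth would settle the order was not tested.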

Other observations

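Beside RCCR (AT4G37000), the red chlorophyll catabolite reductase gene, forward and reverse reads were unequal in the region on chromosome 4 from 17441426 to 17441602. It held 411 forward and 568 reverse reads, 42.0% forward (exact binomial test, adjusted p = 5.26e-04 over all regions, of which 0.935% passed). The region is centred inside HSF4 (AT4G36990) and outside RCCR, between 1 and 2 kb from RCCR. Among the 26 regions within 3 kb of the tetrapyrrole genes, it was the only one that passed. RCCR had 2 other regions within 3 kb, with 224 and 76 reads, and CLH2 likewise had 3 in all. Of protein-coding genes with a region within 3 kb, 6.89% had 3 or more. The cause of the unequal reads was not tested.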
